A study of Homo sapiens with 9 samples.

Results

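The genes described here are the 36 nuclear genes for subunits of respiratory complex I and the 13 protein genes of mitochondrial DNA (mtDNA), chosen by name. All 49 were found among the 58395 genes listed for each library, and all 49 had enough reads to be tested in every comparison. The cells were HCT116, an established human colon carcinoma line. According to the methods of the study, all of them carried a short hairpin RNA against STBD1, a glycogen-binding protein proposed as an adaptor for the autophagy of glycogen. Lentivirus then delivered the plvx neo vector alone, wild-type STBD1 (STBD1 WT) or STBD1 with its residue W203 changed to cysteine (STBD1 W203C), and infected cells were cultured under drug selection. There were 3 libraries per group, which the methods call biological replicates. Whether each came from its own infection is not given in the sources used here, so every p-value measures the spread between these libraries.

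File names and sample labels disagree on which of the 2 constructs a library carried, each naming as STBD1 WT what the other names as STBD1 W203C. Labels were followed throughout. If they were exchanged, every direction between the constructs would turn around and their comparisons with plvx neo would swap.

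Complex I takes electrons from NADH in the mitochondrial matrix, passes them along a chain of iron-sulfur clusters to ubiquinone, and pumps protons across the inner membrane. Its matrix arm holds the flavin and the clusters. Its membrane arm holds the proton pumps, whose core is made from mtDNA, so the complex is put together from proteins of both genomes. Human mtDNA is transcribed as long RNAs covering both strands, which are cut into mRNAs largely at the transfer RNAs between them. Apart from subunits of complex I, it encodes cytochrome b of complex III, the catalytic core of complex IV and membrane subunits of the ATP synthase.

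Libraries held 16.9 to 23.3 M expected counts (M, mega), the read pairs that RSEM assigns to each gene, and every pair of replicates differed by more than sampling noise. STBD1 stood at 2.75 to 3.84 TPM (transcripts per M, a level per length) in plvx neo, 10.8 to 10.9 with STBD1 WT and 8.37 to 10.3 with STBD1 W203C, above plvx neo in every library with a construct. This level alone does not show which construct a library carried. The epithelial markers EPCAM, KRT8, KRT18, KRT19 and CDH1 were present in every library (CDH1 lowest, at 17.7 to 29.6 TPM), and their summed level was 3792 to 3889 TPM in plvx neo, 3388 to 3520 with STBD1 WT and 3168 to 3429 with STBD1 W203C. In the edgeR test over all genes (adjusted p below 0.05), all 5 differed between STBD1 WT and plvx neo, 3 lower in STBD1 WT (KRT18, KRT8 and EPCAM) and 2 higher (KRT19 and CDH1). Of all genes 27.8% differed there. In STBD1 W203C, 1 of the 5 was higher and 2 lower than in STBD1 WT (60%, beside 27.9% of all genes). Against plvx neo 2 of the 5 were lower in STBD1 W203C (40%, beside 5.7%). Of 8 markers of leukocytes, endothelium, fibroblasts and hepatocytes, 7 stayed below 1 TPM and COL1A1 stood at 12.6 to 21.6 TPM. The summed level of these 8 markers was 14.4 to 16.8 TPM in plvx neo, 16.7 to 22.1 with STBD1 WT and 14.0 to 18.9 with STBD1 W203C, and COL1A1 was higher in STBD1 WT than in plvx neo (log2 fold change 0.48). Between the constructs 2 of these 8 markers had enough reads to be tested, and 1 was lower in STBD1 W203C. The part of these differences in the other results was not tested. In bulk RNA, fewer cells of a kind and less RNA per cell cannot be told apart.

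Adjacent mtDNA genes share bases, and these stretches are shown because a read that falls there can be assigned to either gene. Capitals mark the shared bases on the plus strand of the hg38 mitochondrial genome. MT-ATP8 and MT-ATP6 share 46 bases (positions 8527 to 8572, shown within chrM:8515-8584), and MT-ND4L and MT-ND4 share 7 (positions 10760 to 10766, shown within chrM:10748-10778).
MT-ATP8/MT-ATP6: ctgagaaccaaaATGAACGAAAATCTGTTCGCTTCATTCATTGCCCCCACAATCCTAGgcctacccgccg
MT-ND4L/MT-ND4: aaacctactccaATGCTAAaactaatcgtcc

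MT-ATP8 has an annotated length of 207 bases. MT-ND4L has 297 bases and MT-ND3 has 346, so all of these annotated lengths are close to or shorter than the sequenced fragments. The RNA that carries a gene can be longer than the gene, and its length was not measured here. The median difference between transcript length and RSEM effective length, which follows the fragment length of a library, was 240 to 247 bases in plvx neo, 250 to 263 with STBD1 WT and 245 to 257 with STBD1 W203C. The effective length left for MT-ATP8 was 3.05 to 5.64 bases, so its TPM has little behind it, and its counts were the lowest of the 13 (492 to 1087 per library). Levels of these genes per length are uncertain for that reason.

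mtDNA transcripts were abundant. The 13 genes took 4.31% ± 0.229 of expected counts in plvx neo (SD, n = 3 here and below), 4.47% ± 0.317 with STBD1 WT and 4.15% ± 0.135 with STBD1 W203C, and the single libraries ranged from 4.02% to 4.81% with overlap between all groups. STBD1 WT replicate 2 held the highest share (4.81%) and STBD1 WT replicate 1, at 4.18%, lay inside the range of the other groups, so the group labelled STBD1 WT had the widest spread. On the TPM scale the same genes made up 9.24% to 11% of a library, and the 36 nuclear genes together 0.676% to 0.743%.

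Levels per length, in TPM, differed widely among the members. Averaged over the 9 libraries, MT-ND3 (17024 TPM) and MT-CO2 (16755 TPM) were the highest and overlapped each other. MT-CO3 followed at 11372 TPM. MT-ATP8 (10248), MT-ND4L (10131), MT-ATP6 (9401) and MT-CO1 (8951 TPM) came next, each overlapping its neighbour in this order, and MT-ATP8, MT-ND4L and MT-ND3 are the short genes whose TPM is uncertain. MT-ND2 (4214), MT-ND4 (4032), MT-CYB (2409), MT-ND1 (2210) and MT-ND5 (1425 TPM) were lower. MT-ND6, the member encoded on the other strand, stood at 1917 TPM. As the use of the strand in counting is not given, this TPM may include reads from the opposite strand. On this scale every mtDNA gene exceeded every nuclear member. In counts per M, not divided by length, the mean of MT-ATP8 lay among those of the nuclear genes. NDUFS5, a small intermembrane-space subunit, was the highest nuclear gene at 680 TPM, followed by NDUFB9 at 543 and NDUFB8 at 502. NDUFV3, a matrix-arm accessory subunit, was the lowest at 25.5 TPM, below NDUFA5 at 55.1 and NDUFS1 at 57.5, which overlapped each other.

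**Figure D1:**
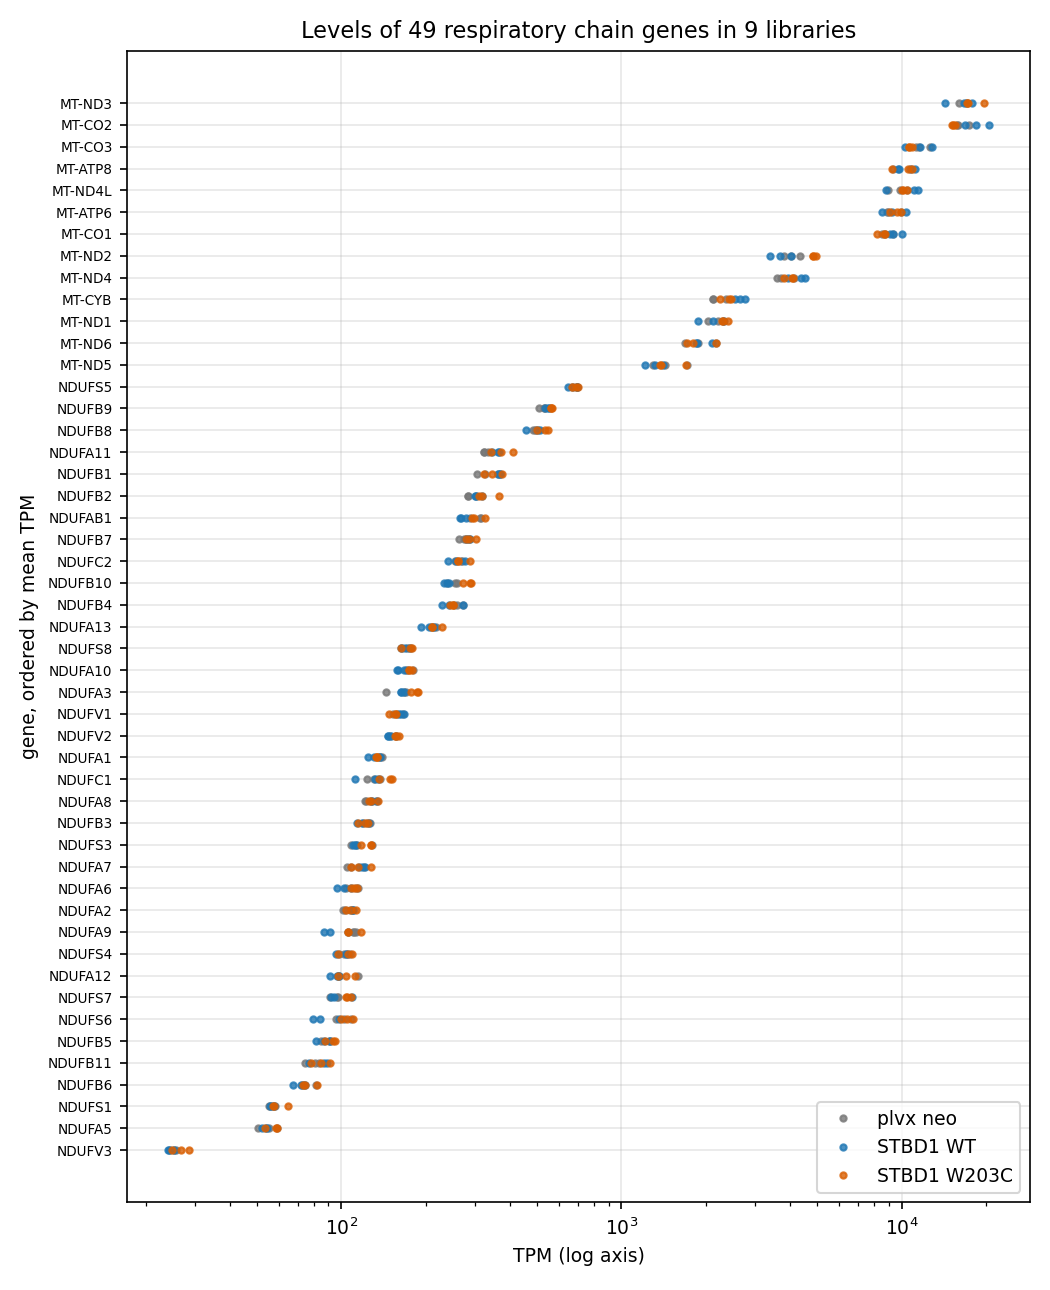
TPM on a log axis (horizontal) of the 49 genes (vertical, ordered by mean TPM), with 1 point per library in 3 colours for plvx neo, STBD1 WT and STBD1 W203C. The 13 mtDNA genes sit above all nuclear genes, from 1425 TPM for MT-ND5 to 17024 TPM for MT-ND3, and the colours mix for most genes.

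The comparison of STBD1 WT against plvx neo asks what restoring STBD1 does in depleted cells. mtDNA genes differed in both directions. Called genes are those with a Benjamini-Hochberg adjusted p below 0.05 in the edgeR quasi-likelihood test over all genes. Of 13 mtDNA genes 3 were higher (MT-CYB, MT-ND4 and MT-CO2) and 3 lower (MT-ATP8, MT-ND3 and MT-ND4L) in STBD1 WT. That is 46.2% called, beside 27.8% of all 15289 genes tested (13.9% higher and 13.9% lower). The median log2 fold change of the 13 was -0.052, beside 0.006 over all genes. MT-ND4 and MT-ND4L share bases but were called in opposite directions. MT-ATP6, which shares bases with MT-ATP8, was not called (log2 fold change -0.015). A read in shared bases can be assigned to either gene, so the genes of such a pair are not fully separate measurements.

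MT-CYB, the cytochrome b of complex III (chrM:14747-15887), showed the clearest rise. Its normalised counts per M (CPM, scaled by TMM over the 9 libraries) were 1876, 1782 and 1994 in plvx neo and 2168, 2350 and 2220 in STBD1 WT. All STBD1 WT libraries lay above all plvx neo libraries. The log2 fold change was 0.26 ± 0.042 (SE; edgeR adjusted p = 0.000124), a 1.195-fold level. With an offset for effective length it was 0.27 (adjusted p = 0.00596), and it was lost only in limma on log2(TPM + 1) without a filter on low values (adjusted p = 0.0721).

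MT-ND3, a small membrane subunit at the ubiquinone site, had CPM of 1652, 1626 and 1706 in plvx neo and of 1334, 1471 and 1455 in STBD1 WT. The groups did not overlap, and the log2 fold change was -0.22 ± 0.040 (edgeR adjusted p = 0.000272). MT-ND4L, a neighbouring short subunit, fell from 515, 512 and 597 to 443, 509 and 470 CPM (log2 fold change -0.19 ± 0.054, adjusted p = 0.0122), but took the opposite sign, 0.10, with the effective length offset (adjusted p = 0.487). MT-ATP8, an ATP synthase subunit, went from 54.8, 40.4 and 56.9 to 40.0, 37.8 and 28.4 CPM (log2 fold change -0.51 ± 0.11, adjusted p = 0.00158). These 3 genes are the shortest of mtDNA, and with the effective length offset the value of MT-ATP8 became -0.010 (adjusted p = 0.961) and that of MT-ND3 -0.038 (adjusted p = 0.766). The called falls were thus lost with this offset, as were the called rises of MT-ND4 (0.17, adjusted p = 0.096) and MT-CO2 (0.19, adjusted p = 0.0888), whose values kept their size. It left MT-CYB as the 1 called mtDNA gene of 13 and 12.5% of all genes called, in place of 27.8%, and the part of fragment length was not tested. MT-ND4L was also lost without plvx neo replicate 3 (adjusted p = 0.130) or without STBD1 WT replicate 1 (adjusted p = 0.0786).

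MT-ND4, a proton-pumping subunit, had CPM of 4145, 3830 and 4410 in plvx neo and 4259, 4882 and 4666 in STBD1 WT, with overlap (log2 fold change 0.16 ± 0.050, edgeR adjusted p = 0.0206). MT-CO2, a catalytic subunit of complex IV, had 6843, 6554 and 7224 CPM in plvx neo and 6987, 8452 and 7401 in STBD1 WT, again with overlap (0.15 ± 0.053, adjusted p = 0.040). Without STBD1 WT replicate 2, the library with the largest mtDNA share, neither was called: MT-ND4 stood at 0.11 (adjusted p = 0.117) and MT-CO2 at 0.068 (adjusted p = 0.269). Leaving out plvx neo replicate 2 ended both calls as well (MT-ND4 adjusted p = 0.133, MT-CO2 adjusted p = 0.160), and leaving out plvx neo replicate 1 ended that of MT-CO2 (adjusted p = 0.078). MT-ND2 stood at the threshold without passing it (log2 fold change -0.14 ± 0.054).

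STBD1 W203C against STBD1 WT compares the constructs, and here MT-ND2 gave the most stable difference of all 49 genes. Of 13 mtDNA genes 2 were higher in STBD1 W203C (MT-ND2 and MT-ND3) and 4 were lower (MT-CO2, MT-CO1, MT-CYB and MT-ND4). The share called was 46.2%, beside 27.9% of 15052 genes tested (14.5% higher and 13.4% lower). The median of the 13 was 0.009, beside -0.008 over all genes.

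MT-ND2, a proton-pumping core subunit (chrM:4470-5511), had CPM of 3667, 3550 and 3575 in STBD1 W203C and 2575, 3057 and 2739 in STBD1 WT. The groups did not overlap, and the log2 fold change was 0.37 ± 0.048 (edgeR adjusted p = 7.98e-06), a 1.29-fold level. It was called in all 20 alternative settings run for it, with values from 0.32 to 0.44. MT-ND3 had 1609, 1618 and 1704 CPM in STBD1 W203C, all above STBD1 WT (0.21 ± 0.042, adjusted p = 0.000603), and this call ended with the effective length offset.

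Lower in STBD1 W203C than in STBD1 WT were MT-CO2 and MT-CO1 of complex IV, MT-CYB of complex III and MT-ND4, while MT-CO3 was not called (log2 fold change -0.14, adjusted p = 0.0646). MT-CO2 had 6216, 6267 and 6099 CPM in STBD1 W203C, below each STBD1 WT library (log2 fold change -0.30 ± 0.051, edgeR adjusted p = 0.000167). MT-CO1, the subunit that holds the oxygen-reducing site, had 10504, 10278 and 9883 CPM in STBD1 W203C and 11223, 12470 and 11359 in STBD1 WT (-0.19 ± 0.044, adjusted p = 0.00224). MT-CYB had 2050, 1987 and 1875 CPM in STBD1 W203C, again without overlap (-0.19 ± 0.041, adjusted p = 0.00164). With the effective length offset MT-CO2 (-0.32), MT-CO1 (-0.20) and MT-CYB (-0.20) all stayed called. MT-CO1 and MT-CYB were lost when a replicate block was added to this offset, and in all 3 limma fits. MT-CO2 was lost in limma on log2(TPM + 1), with and without a filter on low values. MT-ND4, at 4326, 4231 and 4033 CPM, overlapped STBD1 WT (-0.13 ± 0.046, adjusted p = 0.0339). Its call was lost without STBD1 WT replicate 2 (adjusted p = 0.172), without STBD1 WT replicate 3 (0.0936), and without STBD1 W203C replicate 1 (0.0597), replicate 2 (0.0999) or replicate 3 (0.102).

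Set against plvx neo, STBD1 W203C differed in 3 of 13 mtDNA genes, 1 higher and 2 lower (23.1%), beside 5.7% of 15081 genes tested (3.03% higher and 2.67% lower). MT-ND2 was again the higher gene, with CPM of 3177, 2850 and 3249 in plvx neo, all below STBD1 W203C (log2 fold change 0.22 ± 0.039, edgeR adjusted p = 0.000996). MT-CO3, a structural core subunit of complex IV, had 6151, 5702 and 6412 CPM in plvx neo and 5446, 5255 and 5291 in STBD1 W203C (-0.19 ± 0.037, adjusted p = 0.00176), without overlap. MT-CO2 was lower as well (-0.15 ± 0.034, adjusted p = 0.00826). Without plvx neo replicate 3 MT-CO2 was not called (adjusted p = 0.109), nor without STBD1 W203C replicate 1 (adjusted p = 0.0505). With the effective length offset none of the 3 was called by edgeR, MT-ND2 keeping its size (0.22, adjusted p = 0.0611), and 119 of 15081 genes were called in all. Without plvx neo replicate 2 there were 5 called mtDNA genes, beside 4.78% of all genes. The 3 comparisons share libraries in pairs, so they are not independent of each other.

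**Figure D2:**
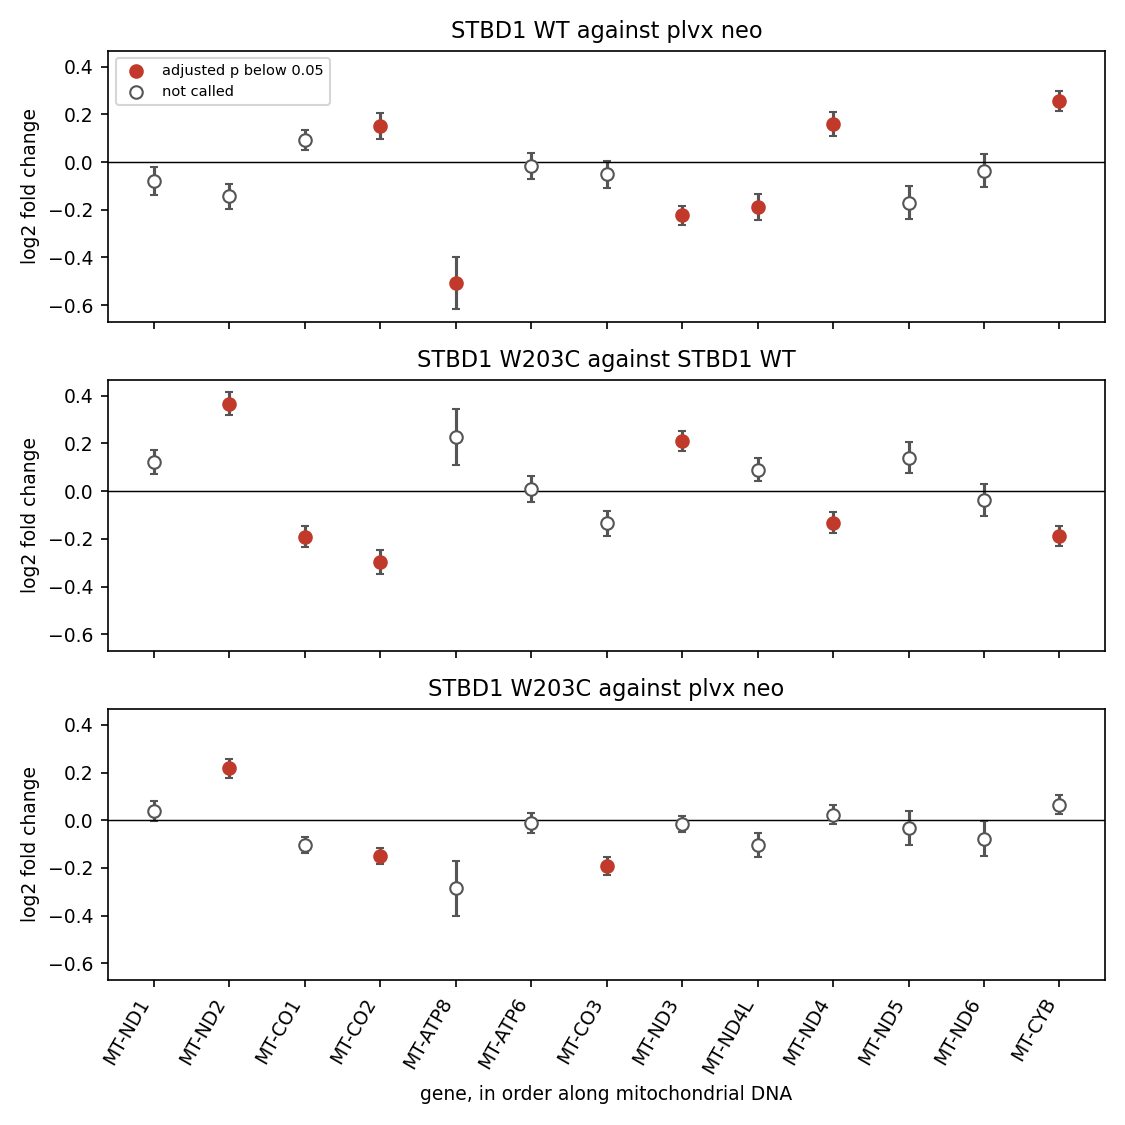
Log2 fold change (vertical, with SE) of the 13 mtDNA genes in their order along mtDNA (horizontal) in each comparison, with filled points for an adjusted p below 0.05. MT-CYB (0.26) is the highest and MT-ATP8 (-0.51) the lowest in STBD1 WT against plvx neo, and MT-ND2 is the highest in both comparisons of STBD1 W203C (0.37 and 0.22).

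The make-up of the mtDNA transcripts was examined apart from their total. For this each gene was given as a percentage of the counts on the 13 genes in the same library, which removes any difference in the total mtDNA share. The shares of a library have a fixed sum, so a change in an abundant gene also moves those of other genes. They were not adjusted for effective length. MT-ND2 took 7.32%, 6.97% and 7.09% in plvx neo, 6.22%, 6.34% and 6.28% in STBD1 WT and 8.53%, 8.54% and 8.81% in STBD1 W203C. No 2 groups overlapped, and the order was STBD1 WT, plvx neo, STBD1 W203C. MT-ND1, its upstream neighbour, kept the same order at 3.06% to 3.23%, 3.34% to 3.57% and 3.62% to 3.72%. The ratio of MT-ND2 to MT-ND1 counts nevertheless rose in STBD1 W203C, to 2.32 to 2.37, from 2.05 to 2.09 in plvx neo and 1.95 to 2.04 in STBD1 WT.

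MT-CYB took 4.32% to 4.36% in plvx neo, 4.87% to 5.24% with STBD1 WT and 4.62% to 4.78% with STBD1 W203C, so that plvx neo was lowest and STBD1 WT highest without overlap. MT-CO2 took 15.8% to 16.0%, 16.9% to 17.5% and 14.5% to 15.1% in the same order of groups. MT-CO3 had 13.9% to 14.2% in plvx neo and lay lower in both construct groups, at 12.7% to 13.5% with STBD1 WT and 12.6% to 13% with STBD1 W203C, which overlapped. MT-ND4 had 9.36% to 9.63% in plvx neo and was higher with either construct, at 10.1% to 10.7% and 9.94% to 10.2%. MT-ND6, the gene of the other strand, overlapped in all 3 groups (1.06% to 1.31%). Its counts may include reads from RNA of the opposite strand, as the use of the strand in counting is not given. With 3 libraries per group, no exact permutation test of a single share can give a p below 0.1, and these shares are given as descriptions.

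**Figure D3:**
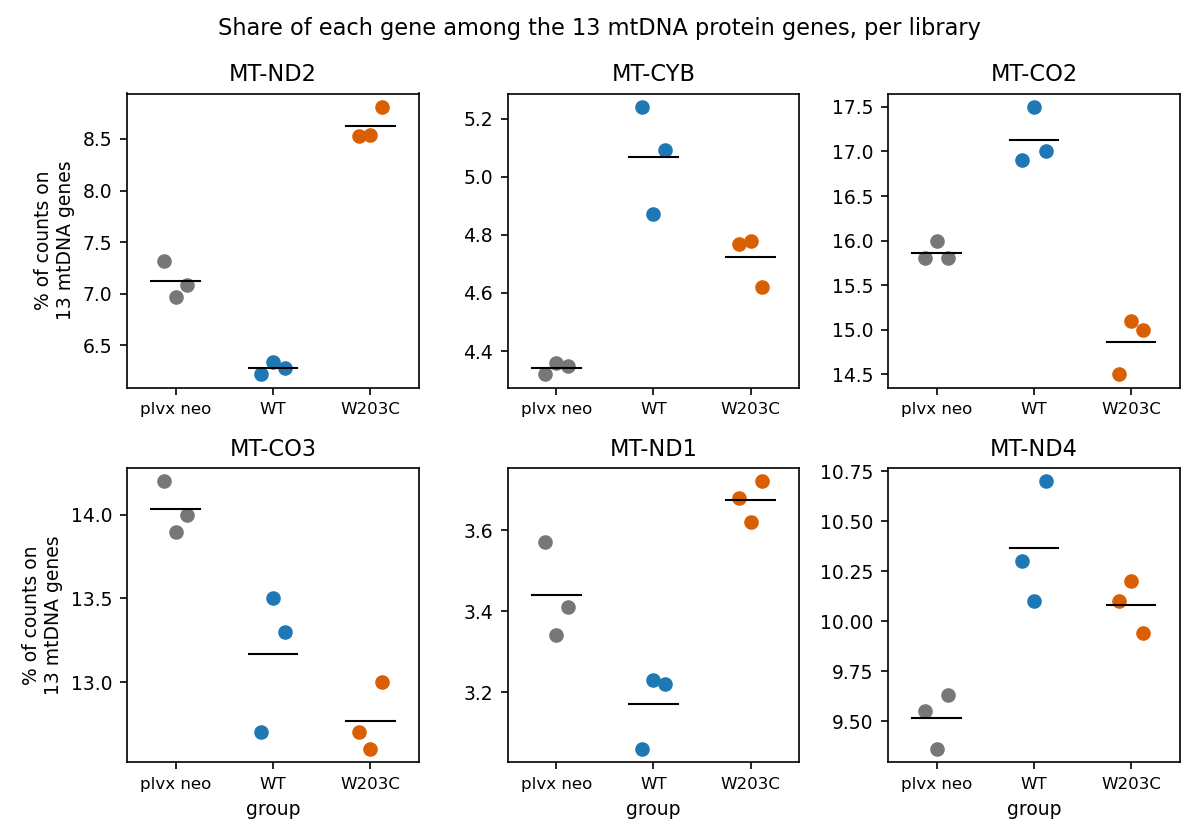
Percentage of the counts on the 13 mtDNA genes taken by 6 of them (vertical, axes not starting at 0) in each library (points) by group (horizontal), with the group mean as a line. MT-ND2 separates all 3 groups, from 6.22% to 6.34% in STBD1 WT to 8.53% to 8.81% in STBD1 W203C, and MT-CYB is lowest in plvx neo (4.32% to 4.36%).

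Copies of mtDNA lie in the nuclear genome and can take or give reads. MTATP6P1, a copy of MT-ATP6 on chromosome 1 (633696 to 634376) that matches it at 98.53% of bases, took 4.81% to 6.42% of the counts on the pair. MTCO1P12 (98.7% identical) took 0.986% to 1.13% of those on MT-CO1 and its copy. MTND2P28 (98.37% identical) took 0.0299% to 0.0521% for MT-ND2. Between STBD1 WT and plvx neo, MTATP6P1 was lower (log2 fold change -0.26, edgeR adjusted p = 0.0142) and MTCO1P12 higher (0.14, adjusted p = 0.0259). Adding the copies to their mtDNA genes left the number of mtDNA genes called at 6, 6 and 3 in the 3 comparisons.

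The ribosomal RNAs of mtDNA lie upstream of MT-ND1 and were read for comparison. MT-RNR1, the small-subunit rRNA, was at 1339 ± 44.8 CPM in STBD1 W203C, 998 ± 75.5 in STBD1 WT and 1023 ± 27.2 in plvx neo. It was higher in STBD1 W203C than in STBD1 WT (log2 fold change 0.42, edgeR adjusted p = 7.44e-07) and than in plvx neo (0.39, adjusted p = 7.14e-08). MT-RNR2, the large-subunit rRNA, was higher in STBD1 WT (0.16, adjusted p = 0.00476) and in STBD1 W203C (0.13, adjusted p = 0.0194) than in plvx neo.

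Differences of nuclear complex I subunits were small. Of 36, none was higher and 6 were lower in STBD1 WT than in plvx neo (16.7%, beside 13.9% of all genes lower and 27.8% called in either direction). The called differences ran from -15.5% to -7.09%. Of the 36, 27 had a negative log2 fold change, and the median was -0.043, beside 0.006 over all genes. By role, 3 of 9 matrix-arm accessory subunits, 1 of 9 proximal and 1 of 11 distal membrane-arm subunits and the acyl carrier protein NDUFAB1 were called, and 0 of 6 core subunits. CPM ranges stood apart for 7 of 36 nuclear and 4 of 13 mtDNA genes, beside 40.4% of all genes.

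NDUFS6, a zinc-binding matrix-arm subunit, had the largest fall, with CPM of 84.0, 73.1 and 84.4 in plvx neo and 76.6, 62.7 and 64.7 in STBD1 WT. The groups overlapped through STBD1 WT replicate 1 and plvx neo replicate 2 (log2 fold change -0.24 ± 0.067, edgeR adjusted p = 0.00976). NDUFAB1, which carries acyl groups in mitochondrial fatty acid synthesis as well as sitting in complex I, had 134, 138 and 140 CPM in plvx neo and 119, 118 and 120 in STBD1 WT (-0.20 ± 0.039, adjusted p = 0.000586). In this comparison NDUFAB1 was the only nuclear member called whichever library was left out, and also with the effective length offset (-0.17, adjusted p = 0.035). Its call was lost with a replicate block added to this offset, and in limma on log2(TPM + 1) without a filter.

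NDUFA12, a matrix-arm subunit, had 36.1, 34.3 and 33.7 CPM in plvx neo and 31.0, 30.9 and 29.4 in STBD1 WT (log2 fold change -0.18 ± 0.062, edgeR adjusted p = 0.0318). NDUFB6, of the distal membrane arm, had 55.6, 54.7 and 61.2 against 51.7, 52.1 and 50.1 CPM (-0.15 ± 0.055, adjusted p = 0.0452). NDUFA9, at the joint of the arms, had 88.0, 87.2 and 82.8 against 83.5, 76.4 and 73.0 CPM (-0.14 ± 0.051, adjusted p = 0.0399). NDUFA10, of the proximal membrane arm, was called at -0.11 (adjusted p = 0.0469). NDUFS6 was lost without plvx neo replicate 3 (adjusted p = 0.0678) or STBD1 WT replicate 2 (adjusted p = 0.0869). Leaving out STBD1 WT replicate 2 left 1 called nuclear member, beside 21.3% of all genes. Leaving out plvx neo replicate 1 or 3, or STBD1 WT replicate 1 or 3, left 3 called nuclear members each, beside 21.5% to 23.3% of all genes.

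Between the constructs, 7 of 36 nuclear subunits were higher and 1 lower in STBD1 W203C than in STBD1 WT (22.2%, beside 27.9% of all genes, 14.5% higher and 13.4% lower). Of the 36, 27 had a positive log2 fold change, and the median was 0.053, beside -0.008 over all genes. NDUFB10, a distal membrane-arm subunit, had CPM of 104, 115 and 108 in STBD1 W203C and 95.5, 94.7 and 92.5 in STBD1 WT, without overlap (log2 fold change 0.21 ± 0.043, edgeR adjusted p = 0.000826). It stayed called with the effective length offset (0.21, adjusted p = 0.0289). NDUFS6 had 82.2, 75.0 and 79.9 CPM in STBD1 W203C and overlapped STBD1 WT (0.22 ± 0.061, adjusted p = 0.0084), and this call was lost without STBD1 WT replicate 2 (adjusted p = 0.0804). NDUFA9 stood at 84.5, 87.1 and 92.0 CPM, above STBD1 WT (0.18 ± 0.051, adjusted p = 0.0108).

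NDUFC1, of the proximal membrane arm, had 55.4, 60.8 and 61.2 CPM in STBD1 W203C and 55.5, 47.3 and 55.4 in STBD1 WT (log2 fold change 0.17 ± 0.062, edgeR adjusted p = 0.0441), and without STBD1 WT replicate 2 the adjusted p was 0.313. NDUFAB1 had 129, 127 and 141 CPM, above all STBD1 WT libraries (0.16 ± 0.043, adjusted p = 0.00894), and was lost without STBD1 W203C replicate 3 (adjusted p = 0.0609). NDUFS3, a core subunit of the matrix arm, was called at 0.13 and lost in 5 of 6 fits that each left out a library (all but that without STBD1 W203C replicate 1; adjusted p 0.0632 to 0.132). NDUFA10 was called at 0.10 and lost in all 6 (adjusted p 0.0584 to 0.123). NDUFV1, the core subunit that binds NADH and flavin, was the lower gene, at 154, 153 and 156 CPM in STBD1 W203C and 169, 169 and 168 in STBD1 WT (-0.12 ± 0.037, adjusted p = 0.0139). Among nuclear members 10 of 36 had no overlap between the groups and among mtDNA genes 5 of 13, beside 41.1% of all genes.

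The number of nuclear calls between the constructs rested on single libraries and on the scaling. Without STBD1 WT replicate 2 there were 2 calls, without STBD1 W203C replicate 3 there were 3, and without STBD1 WT replicate 3 or STBD1 W203C replicate 2 there were 5. These fits called 21.5% to 23.4% of all genes. A fit that removed a trend with gene length and GC content gave 15 higher and 0 lower in place of 7 and 1, among them NDUFS7 (0.24), NDUFB8 (0.15) and NDUFA13 (0.13). In that fit 31.6% of all genes were called and their median was 0.039. NDUFS7 was also called without STBD1 WT replicate 1 (0.20, adjusted p = 0.0125). The effective length offset left 1 call of 36, and 1582 of 15052 genes overall (10.5%). NDUFV1 was called in neither of these fits, nor without STBD1 WT replicate 2 (adjusted p = 0.0522), STBD1 W203C replicate 1 (0.0579) or STBD1 W203C replicate 2 (0.0772). NDUFA9 was lost without STBD1 WT replicate 2 (adjusted p = 0.0522), STBD1 WT replicate 3 (0.0624) or STBD1 W203C replicate 3 (0.0555), and NDUFC1 also without STBD1 W203C replicate 2 (0.115) or 3 (0.132).

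No nuclear member was called by edgeR between STBD1 W203C and plvx neo. An unadjusted p below 0.05 was reached by 1 of 36 (NDUFB4, a distal membrane-arm subunit, log2 fold change -0.13), and DESeq2 and limma on log2(TPM + 1) also called 0. Differences ranged from -0.13 to 0.12, with a median of -0.007. Groups did not overlap for 3 of 36 nuclear members and 4 of 13 mtDNA genes, beside 23.6% of all genes. The trend fit called 1 nuclear gene, NDUFB2 (0.17, adjusted p = 0.0361), and without plvx neo replicate 2 there was also 1 call. Of all genes these 2 fits called 7.03% and 4.78%.

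Over the 3 comparisons 10 nuclear members were called at least once by edgeR and 26 never. Single comparisons called 27.8%, 27.9% and 5.7% of all genes. The share of all genes called at least once was not counted, so the 10 cannot be set against it. The 26 were the core subunits NDUFV2, NDUFS1, NDUFS7 and NDUFS8, the accessory subunits NDUFV3, NDUFS4 and NDUFS5, and NDUFA1, NDUFA2, NDUFA3, NDUFA5, NDUFA6, NDUFA7, NDUFA8, NDUFA11, NDUFA13, NDUFB1, NDUFB2, NDUFB3, NDUFB4, NDUFB5, NDUFB7, NDUFB8, NDUFB9, NDUFB11 and NDUFC2. Their log2 fold changes lay between -0.12 and 0.071 in STBD1 WT against plvx neo, between -0.047 and 0.12 between the constructs, and between -0.13 and 0.12 in STBD1 W203C against plvx neo.

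**Figure D4:**
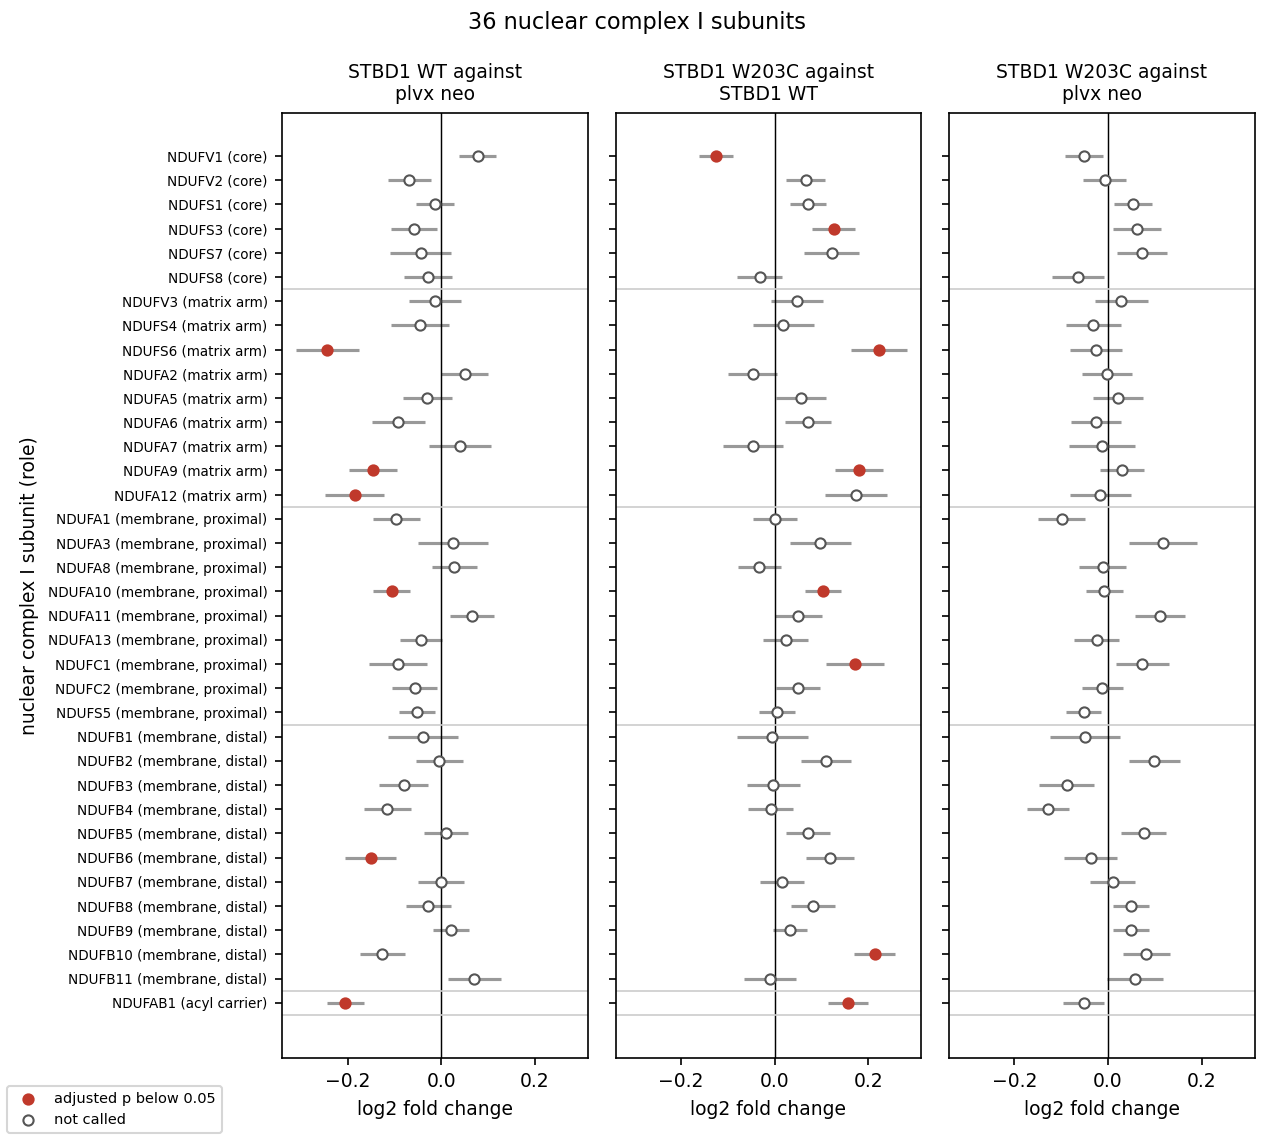
Log2 fold change (horizontal, with SE) of the 36 nuclear complex I subunits by role (vertical) in the 3 comparisons, with filled points for an adjusted p below 0.05. In STBD1 WT against plvx neo 6 are lower, in STBD1 W203C against STBD1 WT 7 are higher and 1 is lower, and in STBD1 W203C against plvx neo 0 are called.

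**Figure D5:**
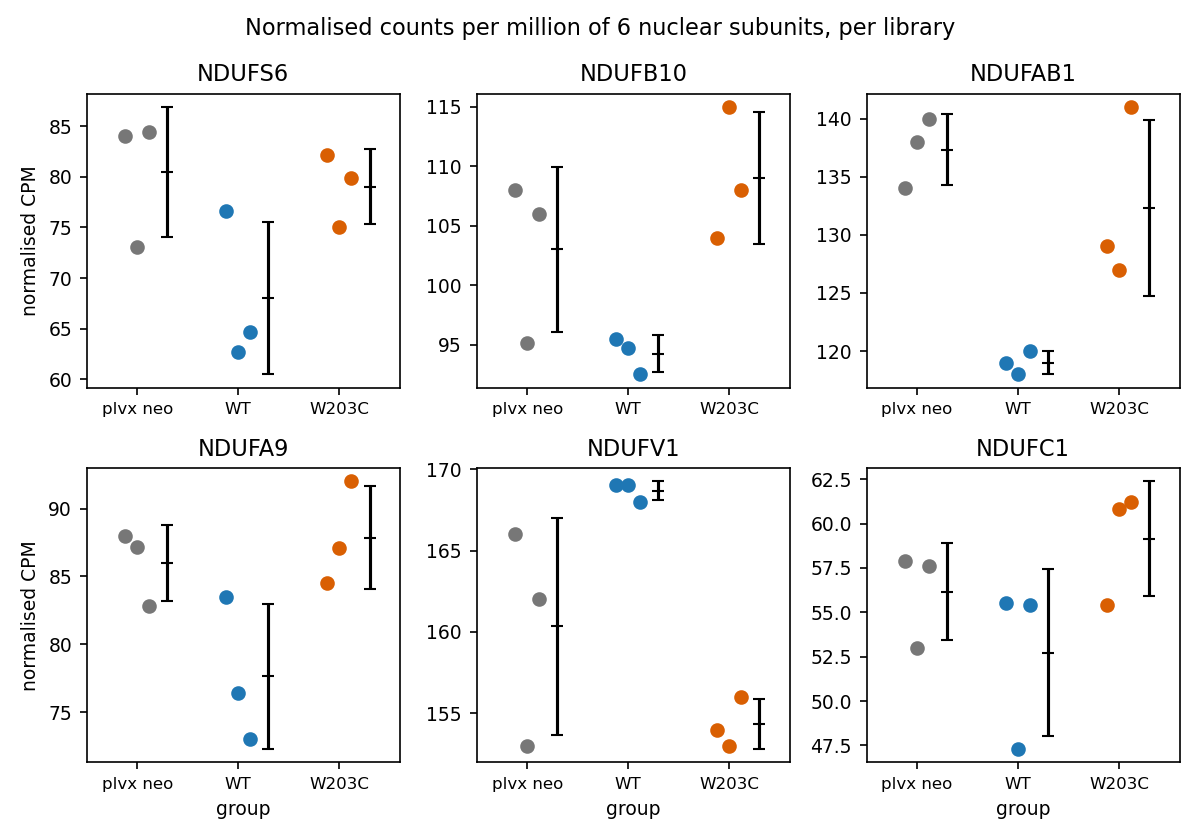
Normalised CPM (vertical, axes not starting at 0) of 6 nuclear subunits in each library (points) by group (horizontal), with mean and SD beside them. For NDUFAB1 the STBD1 WT libraries (118 to 120 CPM) lie below all others, while for NDUFS6 they overlap both groups.

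Promoters were read from RefSeq (GRCh38.p14) for 32 of the nuclear members, over 250 bases before to 50 after the transcript start, and searched on both strands for 7-letter cores of sites named for factors of mitochondrial gene control. GCGCATG, a core of the NRF1 site, was found in 6 of 32 (18.8%: NDUFB4, NDUFS6, NDUFA8, NDUFB8, NDUFS7 and NDUFA6), beside 4.67% of 27305 promoters. GATGGCG, a core of the YY1 site, was in 5 (15.6%, beside 4.35%: NDUFS4, NDUFA9, NDUFS7, NDUFA7 and NDUFA6). CCGGAAG, a core of ETS sites such as that of GABPA, was in 5 (15.6%, beside 10.7%: NDUFS1, NDUFS3, NDUFB7, NDUFA13 and NDUFA1). A match is a stretch of letters and not a measured binding site. The 250 bases before the start of 2 called members, NDUFS6 (chr5:1801157-1801406, plus strand) and NDUFS3 (chr11:47578824-47579073, plus strand), are shown with matches in capitals, the NRF1 core in the first and the ETS core, in either orientation, in the other.
NDUFS6: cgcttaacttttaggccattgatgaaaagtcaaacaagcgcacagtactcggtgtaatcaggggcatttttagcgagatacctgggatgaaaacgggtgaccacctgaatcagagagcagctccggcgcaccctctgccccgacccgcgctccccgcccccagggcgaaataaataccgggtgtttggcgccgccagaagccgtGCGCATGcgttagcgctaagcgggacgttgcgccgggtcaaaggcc
NDUFS3: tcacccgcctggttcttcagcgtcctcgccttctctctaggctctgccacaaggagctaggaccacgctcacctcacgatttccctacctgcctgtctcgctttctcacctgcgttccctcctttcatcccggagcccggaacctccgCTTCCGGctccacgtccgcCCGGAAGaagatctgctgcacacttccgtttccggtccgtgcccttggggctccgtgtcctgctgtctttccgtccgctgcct

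Among the 6 members with the NRF1 core, NDUFS6 was the only one called in any comparison. Over all 36 nuclear members 10 were called at least once, and 6 genes are too few to compare with that. The share of all genes called at least once was not counted, and control by NRF1 was not tested. NRF1 itself, which encodes the factor, was lower in STBD1 WT than in plvx neo (log2 fold change -0.20, edgeR adjusted p = 0.0298). In the same comparison PPARGC1B (-0.28) and PPRC1 (-0.19), coactivators of mitochondrial biogenesis, were lower too, making 3 of 7 tested regulators (42.9%, beside 27.8% of all genes; PPRC1 was named there after its values were seen). Between the constructs 2 of 7 were higher in STBD1 W203C, again counting PPRC1 (0.25), and GABPB1 (0.25). That is 28.6%, beside 27.9% of all genes called and 14.5% higher. In STBD1 W203C against plvx neo 0 of 7 was called, beside 5.7% of all genes.

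Other genes of the pathway were counted for comparison. Of 20 tested genes that process or stabilise mitochondrial RNA, 12 were lower and 1 higher in STBD1 WT than in plvx neo (65%, beside 27.8% of all genes; median -0.15), 13 were higher and 0 lower in STBD1 W203C than in STBD1 WT (65%, beside 27.9%; median 0.19), and edgeR called 0 in STBD1 W203C against plvx neo. SLIRP, which with LRPPRC stabilises mitochondrial mRNAs, fell from 73.5 ± 3.56 CPM in plvx neo to 57.9 ± 1.62 in STBD1 WT (log2 fold change -0.34, adjusted p = 4.19e-05). FASTKD3, of a family that acts on single mitochondrial mRNAs, was lower in STBD1 WT than in plvx neo (-0.32, adjusted p = 0.0319) and higher in STBD1 W203C than in STBD1 WT (0.43, adjusted p = 0.00302). FASTKD2 was also higher in STBD1 W203C than in STBD1 WT (0.31, adjusted p = 8.45e-05). As both comparisons use the STBD1 WT libraries, opposite signs between them are not separate results.

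Of 14 genes for mtDNA maintenance and transcription, 4 were lower in STBD1 WT than in plvx neo (28.6%, beside 27.8% of all genes called and 13.9% lower) and 5 higher in STBD1 W203C than in STBD1 WT (35.7%, beside 27.9% called and 14.5% higher), and 0 was called by edgeR in STBD1 W203C against plvx neo. MTERF3, a regulator of mitochondrial transcription, was at 37.0 ± 0.666 CPM in plvx neo, 29.7 ± 1.49 with STBD1 WT and 37.4 ± 0.869 with STBD1 W203C (adjusted p = 0.000817 and 0.000472). SSBP1, the single-strand DNA-binding protein of mitochondria, was at 104 ± 4.54, 84.3 ± 2.09 and 102 ± 2.90 CPM (adjusted p = 6.42e-05 and 5.91e-05). Both genes were thus lower in STBD1 WT than in either other group by the edgeR test.

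Complex I assembly factors, which join the subunits without staying in the complex, had 1 higher and 6 lower of 18 in STBD1 WT against plvx neo (38.9%, beside 27.8% of all genes), led by NDUFAF2 (log2 fold change -0.31, edgeR adjusted p = 0.00273) and NDUFAF6 (-0.31, adjusted p = 0.0253). Between the constructs 4 of 18 were higher and 0 lower in STBD1 W203C (22.2%, beside 27.9% of all genes called and 14.5% higher). NDUFAF4 (0.24) and NDUFAF2 (0.23) rose by most, and 0 was called in STBD1 W203C against plvx neo (5.7% of all genes).

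Nuclear genes of the other complexes were counted by complex, and within each comparison all calls had the same direction. In STBD1 WT against plvx neo none was higher, while 13.9% of all genes were lower and 27.8% called. Lower were 1 of 4 of complex II (25%, SDHB, -0.16) and 0 of 9 of complex III. So were 2 of 11 of complex IV (18.2%, COX7B, -0.14, and COX5A, -0.13) and 4 of 15 of complex V (26.7%, ATP5ME, -0.25, and ATP5PF, -0.19, by most). In STBD1 W203C against STBD1 WT none was lower, while 14.5% of all genes were higher and 27.9% called. Higher were 1 of 4 of complex II (25%, SDHD, 0.12) and 1 of 9 of complex III (11.1%, CYC1, 0.13). So were 3 of 15 of complex V (20%, ATP5MF, 0.22, and ATP5PF, 0.13, by most) and 0 of 11 of complex IV. In STBD1 W203C against plvx neo 2.67% of all genes were lower and 5.7% called. There 2 of 9 genes of complex III (22.2%, UQCRC2, -0.15, and UQCRH, -0.14) and 1 of 15 of complex V (6.67%, ATP5ME, -0.23) were lower.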

How the data were processed

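The authors removed low-quality reads, then used STAR 2.7.1a (hg38, Ensembl gene models) for alignment and RSEM 1.3.1 for quantification. The deposited tables give for each gene the expected count, in which a read pair compatible with several genes is divided between them, and the TPM, a level that the authors obtained from RSEM by dividing by effective length and scaling each library to the same total. Whether the strand was used in counting is not given in the sources used here. The deposited effective lengths, which RSEM estimates in bases for each gene and library, were used for the effective length offset. The deposited transcript lengths were used for the length and GC trend.

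Symbols were matched for 57754 of 58395 genes (98.9%). Expected counts were rounded, filtered with filterByExpr, normalised by TMM and tested in edgeR 4.0.16 (R 4.3.3) on the 6 libraries of each comparison, two-sided, with Benjamini-Hochberg adjustment over all genes tested and a threshold of 0.05. The SE is the absolute log2 fold change divided by the square root of F. Alternatives were DESeq2 1.42.0, limma 3.58.1 on log2(TPM + 1) or log2(TPM + 0.1), other scaling and filtering, offsets for effective length or for a length and GC trend, copies of mtDNA added, a replicate block, and leaving out each library. The main fit, the replicate block, both offsets, DESeq2 and limma were run on simulated counts. These counts held no length or GC effect, so the offsets were not tested on such effects. Gene positions are from GENCODE v44 on hg38, newer models than those the authors counted on. The members and all lists were chosen with earlier results of these data known. All members are named, with full values for called mtDNA genes and, per comparison, up to 5 called nuclear members with the largest rise and up to 5 with the largest fall, and from each other list up to 2 called genes with the largest change per comparison.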

Additional observations from a re-analysis of the deposited data

How the results depend on the processing

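With DESeq2, nuclear members called numbered 2 in STBD1 WT vs plvx neo and 5 in STBD1 W203C vs STBD1 WT, and mtDNA genes 2 in STBD1 WT vs plvx neo. It called 11.5% and 10.8% of all genes in these comparisons, over more genes than edgeR tested after its filter. With the effective length offset, nuclear calls numbered 1 in STBD1 WT vs plvx neo and 1 in STBD1 W203C vs STBD1 WT (0 and 0 with the replicate block added), and mtDNA calls 1 in STBD1 WT vs plvx neo and 0 in STBD1 W203C vs plvx neo (1 and 0 with the block, which also left 2 between the constructs). Calls over all genes fell as well, from 4254 to 1907 (12.5%) in STBD1 WT vs plvx neo. The share was 10.5% between the constructs and 0.789% in STBD1 W203C vs plvx neo. With the block added the 3 shares were 9.76%, 6.49% and 0.477%. In limma on log2(TPM + 1), on log2(TPM + 0.1) and on log2(TPM + 1) without a filter, nuclear calls were 1, 1 and 0 in STBD1 WT vs plvx neo and 3, 3 and 1 between the constructs, mtDNA calls were 1, 1 and 0, then 1, 2 and 1, and 0 in each for STBD1 W203C vs plvx neo, and the nuclear median in STBD1 W203C vs plvx neo moved from -0.007 to 0.049, 0.05 and 0.049. Of all genes these limma fits called 11.5%, 11.4% and 3.51% in STBD1 WT vs plvx neo and 12.1%, 12% and 3.62% between the constructs. In STBD1 W203C vs plvx neo they called 0.869%, 0.763% and 0.0549%. The length and GC trend gave 15 nuclear calls between the constructs (13 with the replicate block) and 1 in STBD1 W203C vs plvx neo (1 with the block). Of all genes it called 31.6% (29.4%) and 7.03% (6.22%). Without a filter on low counts, mtDNA calls rose to 10 between the constructs and 5 in STBD1 W203C vs plvx neo. This fit called 4141 of 27338 genes (15.1%) and 1044 of 27275 (3.83%). On the TPM scale the mtDNA share was 9.88% in plvx neo, 10.2% with STBD1 WT and 9.95% with STBD1 W203C. The cause of these moves was not tested. MT-ND4L in STBD1 WT vs plvx neo turned to 0.104 with the effective length offset, 0.096 with the block added and 0.094 in each limma fit, and MT-ND3 in STBD1 W203C vs plvx neo turned from -0.016 to 0.145 with the length and GC trend.

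Leaving out each library gave 1 to 8 nuclear calls in STBD1 WT vs plvx neo, 2 to 7 in STBD1 W203C vs STBD1 WT and 0 to 1 in STBD1 W203C vs plvx neo, and 5 to 8, 5 to 8 and 2 to 5 mtDNA calls. Of all genes these fits called 21.3% to 24.3%, 21.5% to 23.4% and 2.99% to 5.3%. Nuclear medians ran from -0.074 to -0.010, 0.034 to 0.079 and -0.021 to 0.014, and mtDNA medians from -0.138 to -0.007, -0.040 to 0.090 and -0.125 to 0.016. The mtDNA share ran from 4.19% to 4.42% in plvx neo, 4.31% to 4.62% with STBD1 WT and 4.09% to 4.22% with STBD1 W203C.

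Replicate numbers are shared by the groups. Over all genes, deviations of same-numbered libraries correlated at -0.0124 to 0.0677, and those of other pairs at -0.102 to 0.0743. A batch shared by number that acts on some genes was not tested. The replicate block gave 5 nuclear calls in place of 8 between the constructs (24.3% of all genes in place of 27.9%) and moved no other count of members by over 1.5 times. In STBD1 WT vs plvx neo it gave 8 nuclear calls in place of 6 (28.8% of all genes in place of 27.8%).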
